A study of Mus musculus with 5 samples.

Results

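A set of 10 genes of fatty acid and galactolipid synthesis was followed through the oligodendrocyte (OL) lineage of the adult mouse corpus callosum. They were chosen by name, with earlier results of these same cells known, so their levels across the lineage are given as a description. All 10 were present among the 11733 genes of the deposited matrix. In the order of their steps they are Acly and Aspa (supply of acetyl units), Fasn (fatty acid synthase), Scd1 and Scd2 (desaturases), Elovl1 and Elovl7 (elongases), Fa2h (fatty acid hydroxylase), Ugt8a (ceramide galactosyltransferase) and Gal3st1 (cerebroside sulfotransferase).

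Myelin membrane is unusually rich in lipid, and a large share of that lipid is galactosylceramide and its sulfated form, sulfatide. Both are built on ceramide, whose fatty acid is synthesized from acetyl-CoA, elongated to a very long chain and often hydroxylated before galactose and sulfate are added. In the brain the galactosyltransferase Ugt8a and the hydroxylase Fa2h are known as enzymes of myelinating cells, whereas fatty acid synthase is used by most dividing and growing cells.

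The cells came from the corpus callosum of healthy mice that carry Emx1::Cre together with Sox10::Cre-LoxP-GFP-STOP-TdTom, at postnatal day 60, on a mixed CBA and C57BL/6 background. Tissue of 2 mice was pooled and dissociated, and cells were sorted by reporter. In this line Sox10 sequence restricts the reporters to the OL lineage and Emx1-driven Cre, active in the dorsal forebrain, switches a cell to TdTom. The TdTom+ library therefore holds dorsally derived cells and the GFP+ library the cells without that recombination, taken as ventrally derived, with 1 library each and all cells carrying the same alleles. Another 3 spinal cord samples of the series were not analysed here.

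The TdTom+ library held 1901 cells with 7129294 UMIs (unique molecular identifiers, 1 per captured RNA molecule) and the GFP+ library 952 cells with 3584940 UMIs, at medians of 3340 and 3307 UMIs per cell. A single cell barcode occurred in both libraries. Levels are given as CPM, the UMIs of a gene in each 1000000 UMIs of the cells of a label, summed over those cells. The reads come from the 3′ end of the transcript, so CPM compares the same gene between cells and was not used to rank one gene against another. Each cell carries 1 of 12 deposited labels: oligodendrocyte precursor cells (OPC, 83 cells), committed precursors and newly formed OLs (COP/NFOL, 19 cells), myelin-forming OLs (MFOL1 and MFOL2) and 8 labels of mature OLs. The mature labels were MOL2a, MOL2b and MOL2/4 (below, the MOL2 labels), MOL6a, MOL6b and MOL4-5/6 (the MOL5/6 labels), MOL1, and the mixed MOL2/MFOL, with 1620 TdTom+ and 791 GFP+ cells. Of 34 lineage markers, 30 were highest in the class they mark, including 6 of 6 for OPC and 6 of 7 for COP/NFOL. The labels were made by clustering these same cells, the 10 genes among the rest, so a contrast of labels carries no test. With 1 library per origin there is no replicate error either, and all intervals are 95% intervals that cover counting error only. A gene was called between labels when it passed a stated fold the same way in both libraries, and counts are set beside the share that passed it among all 2958 genes averaging 50 CPM or more. For a sum with 0 UMIs the limit printed is the level that 3 UMIs would give, which is lower than the upper end of the exact Poisson interval drawn in the plot of levels.

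Upstream sequence shows how different the starts of these genes are, and is given for 4 genes whose levels took different courses: Aspa, late in the lineage, Elovl7 and Ugt8a, early, and Fasn, nearly flat. Each run holds the 250 bases before the RefSeq transcription start (GRCm38.p6), 5′ to 3′ on the strand of the gene. Capitals mark matches, on either strand, to 3 short motifs, namely CCAAT, which is the CCAAT box, GGGCGG, which is the GC box, and TATAAA, which is the TATA box.
Aspa, chr11:73324638-73324887, minus strand: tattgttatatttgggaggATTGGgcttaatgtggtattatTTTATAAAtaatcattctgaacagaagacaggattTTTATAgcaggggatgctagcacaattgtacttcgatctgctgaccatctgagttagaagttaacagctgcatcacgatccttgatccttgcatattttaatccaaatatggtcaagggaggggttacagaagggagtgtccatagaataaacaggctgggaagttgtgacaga
Fasn, chr11:120824548-120824797, minus strand: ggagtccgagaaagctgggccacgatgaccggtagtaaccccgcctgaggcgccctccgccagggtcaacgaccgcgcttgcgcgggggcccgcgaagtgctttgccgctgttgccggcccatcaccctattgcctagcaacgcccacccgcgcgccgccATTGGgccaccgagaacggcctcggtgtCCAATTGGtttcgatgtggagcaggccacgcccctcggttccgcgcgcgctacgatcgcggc
Elovl7, chr13:108214154-108214403, plus strand: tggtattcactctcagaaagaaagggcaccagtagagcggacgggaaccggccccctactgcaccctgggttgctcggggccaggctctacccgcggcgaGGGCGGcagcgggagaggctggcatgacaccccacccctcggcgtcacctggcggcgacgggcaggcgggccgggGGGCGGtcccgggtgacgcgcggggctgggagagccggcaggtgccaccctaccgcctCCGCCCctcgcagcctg
Ugt8a, chr3:125938653-125938902, minus strand: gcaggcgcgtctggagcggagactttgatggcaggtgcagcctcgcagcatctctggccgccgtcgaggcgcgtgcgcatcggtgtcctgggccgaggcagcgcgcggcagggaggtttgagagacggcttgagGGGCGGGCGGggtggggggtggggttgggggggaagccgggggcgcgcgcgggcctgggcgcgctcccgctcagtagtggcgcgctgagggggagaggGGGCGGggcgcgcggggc
The Aspa run holds a CCAAT box and 3 TATA box matches, of which the first and second overlap, and no GC box. The Fasn run holds 3 CCAAT matches, of which the last ones overlap as CCAATTGG, and neither a GC nor a TATA box. Elovl7 and Ugt8a held 3 GC boxes each, the first and second of Ugt8a overlapping, and no CCAAT or TATA box.

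Windows of 300 bases (250 before and 50 after a start) were found for 7 of the 10 genes, 10 windows in all, since Elovl1 and Gal3st1 have several starts, and 2 windows of Gal3st1 overlap. Scd1, Scd2 and Fa2h had none. A CCAAT box was found in 7 of the 10 windows (of Acly, Aspa, Fasn, Elovl1 and Gal3st1), against 37.4% of all 32851 windows. A GC box was found in 5 of the 10 (of Acly, Elovl1, Elovl7 and Ugt8a), against 35.7% of all windows. The Sox core ACAATG was found in 2 of the 10, both of Gal3st1, against 12.6% of windows, and the TATA box in 1, that of Aspa, against 13.6%. The sterol regulatory element core TCACNCCAC (1.24% of windows) and the E-box CACGTG (7.15% of windows) were found in 0 of the 10. A match is a stretch of letters and was not examined as a binding site.

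The suppliers of acetyl units come first. Acly, at chr11:100476353-100528000 on the minus strand (GENCODE M21, GRCm38), encodes ATP citrate lyase, which makes cytosolic acetyl-CoA from citrate. Its level was 32.2 CPM in OPCs and 69.4 CPM in mature OLs of the TdTom+ library, and 18.1 and 45.8 CPM in the GFP+ library. The ratio of mature OLs to OPCs was 2.15 (interval 0.915 to 6.66) and 2.53 (0.687 to 21.1). Both ratios rest on few OPC molecules, 5 and 2 UMIs, and both intervals include 1. By label Acly spanned 32.2 to 93.1 CPM in the TdTom+ cells, and in the GFP+ cells from 0 of 55845 UMIs in MFOL2, a count that allows up to 53.7 CPM, to 80.9 CPM in COP/NFOL. With the libraries together, every label's interval overlapped that of the next label in the order.

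Aspa, at chr11:73304992-73329596 on the minus strand, encodes aspartoacylase, which releases acetate from N-acetylaspartate. It was nearly silent at the start of the lineage, at 12.9 and 18.1 CPM in TdTom+ and GFP+ OPCs, 2 UMIs in each. In COP/NFOL it stood at 26.0 CPM in the TdTom+ cells (2 UMIs) and at 0 of 61827 UMIs in the GFP+ cells, which allows up to 48.5 CPM. In MFOL1 it stood at 336 and 395 CPM, and in all mature OLs at 412 and 403 CPM. The mature level was 32.0-fold (8.84 to 264) and 22.3-fold (6.15 to 184) that of OPCs. Within the mature labels it was lowest in MOL2a in the TdTom+ cells, at 302 CPM, and in MOL1 in the GFP+ cells, at 316 CPM. In the joint order of the labels the one break between neighbouring intervals lay between MOL2a, at 308 CPM, and OPC, at 15.1 CPM, with COP/NFOL beside OPC.

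Fasn, at chr11:120805846-120824547 on the minus strand, encodes the enzyme that assembles palmitate. It was as high in precursors as later: 90.3 and 72.5 CPM in OPCs (14 and 8 UMIs), 78.0 and 64.7 CPM in COP/NFOL, 68.0 and 111 CPM in MFOL1, and 72.4 and 72.8 CPM in mature OLs. The ratio of mature OLs to OPCs was 0.802 (0.473 to 1.48) in the TdTom+ and 1.01 (0.501 to 2.36) in the GFP+ library. Its 12 labels formed a single run of overlapping intervals, from 112 CPM in MOL2/4 to 58.9 CPM in MFOL2 with the libraries together.

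The desaturases introduce a double bond into saturated fatty acids. Scd2, at chr19:44293674-44306864 on the plus strand, rested on 17273 and 9061 UMIs and gave the narrowest intervals of the set. It was 626 and 643 CPM in OPCs, 1352 and 728 CPM in COP/NFOL, 2393 and 2352 CPM in MFOL1, and 2488 and 2668 CPM in mature OLs. The mature level was 3.98-fold (3.26 to 4.91) and 4.15-fold (3.28 to 5.32) that of OPCs. In the joint order MOL2/4 stood alone at the top (3389 CPM), MOL2b and MOL6b followed (2911 and 2782 CPM), 7 labels from 2190 to 2406 CPM overlapped in turn, and COP/NFOL and OPC were each separate below.

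Scd1, at chr19:44394455-44407879 on the minus strand, was later. It was 25.8 and 18.1 CPM in OPCs (4 and 2 UMIs), and no UMI was found in COP/NFOL in either library, which allows up to 39.0 and 48.5 CPM. In MFOL1 it stood at 99.5 and 99.4 CPM and in mature OLs at 137 and 148 CPM, 5.30-fold (2.06 to 19.5) and 8.16-fold (2.24 to 67.6) the OPC level. Scd1 shares sequence with its neighbours on chromosome 19. Of the 50-base words in the last 500 bases of its transcripts, 9.64% also occur in Scd2 and 11.4% in Scd3, whereas those of Scd2 occur in none of the other Scd transcripts. Its level is uncertain to that extent.

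The elongases lengthen the chain. Elovl7, at chr13:108214404-108285683 on the plus strand, was among the earliest of the set. It was 32.2 and 27.2 CPM in OPCs (5 and 3 UMIs) and already 715 and 404 CPM in COP/NFOL (55 and 25 UMIs). MFOL1 had 299 and 268 CPM and mature OLs 354 and 369 CPM. In the TdTom+ cells COP/NFOL had the highest value of the 12 labels, with an interval of 539 to 931 CPM that overlapped those of MOL2/4 and MOL2/MFOL and lay above that of MFOL1. In the GFP+ cells its interval, 262 to 597 CPM, overlapped that of MFOL1. A single cell held 14 of the 25 GFP+ UMIs, and another 13 of the 55 TdTom+ UMIs, so these intervals, which treat UMIs as independent, are too narrow. The mature level was 11-fold (4.70 to 33.9) and 13.6-fold (4.64 to 66.0) that of OPCs. Elovl1, at chr4:118428093-118432953 on the plus strand, acts on very long saturated chains. It was 25.8 and 45.3 CPM in OPCs, 115 and 116 CPM in MFOL1 and 137 and 154 CPM in mature OLs. The mature level was 5.29-fold (2.06 to 19.5) and 3.41-fold (1.45 to 10.5) the OPC level. In COP/NFOL the libraries disagreed: 7 of 11 TdTom+ cells held 20 Elovl1 UMIs in all, and none of the 8 GFP+ cells held any. The Elovl1 gene overlaps Cdc20 on the other strand, a gene with 16 and 13 UMIs in the libraries.

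The last steps build the galactolipid itself. Fa2h, at chr8:111345135-111393824 on the minus strand, adds the hydroxyl group to the fatty acid. It was 142 and 154 CPM in OPCs, 637 and 307 CPM in COP/NFOL, 744 and 769 CPM in MFOL1 and 722 and 699 CPM in mature OLs. Mature OLs had 5.09-fold (3.36 to 8.13) and 4.54-fold (2.83 to 7.81) the OPC level. Ugt8a, at chr3:125865271-125938619 on the minus strand, joins galactose to ceramide. Its values were 142 and 172 CPM in OPCs, 975 and 501 CPM in COP/NFOL, 819 and 818 CPM in MFOL1, and 780 and 804 CPM in mature OLs. The ratio of mature OLs to OPCs was 5.50 (3.63 to 8.78) and 4.67 (2.98 to 7.77).

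Gal3st1, at chr11:3983636-3999326 on the plus strand, sulfates galactosylceramide. It was already present in OPCs, at 148 and 109 CPM (23 and 12 UMIs). It was 234 and 340 CPM in COP/NFOL, 280 and 220 CPM in MFOL1 and 244 and 261 CPM in mature OLs. The mature level was 1.65-fold (1.09 to 2.61) and 2.40-fold (1.37 to 4.67) the OPC level, past 2-fold in the GFP+ library alone.

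**Figure D1:**
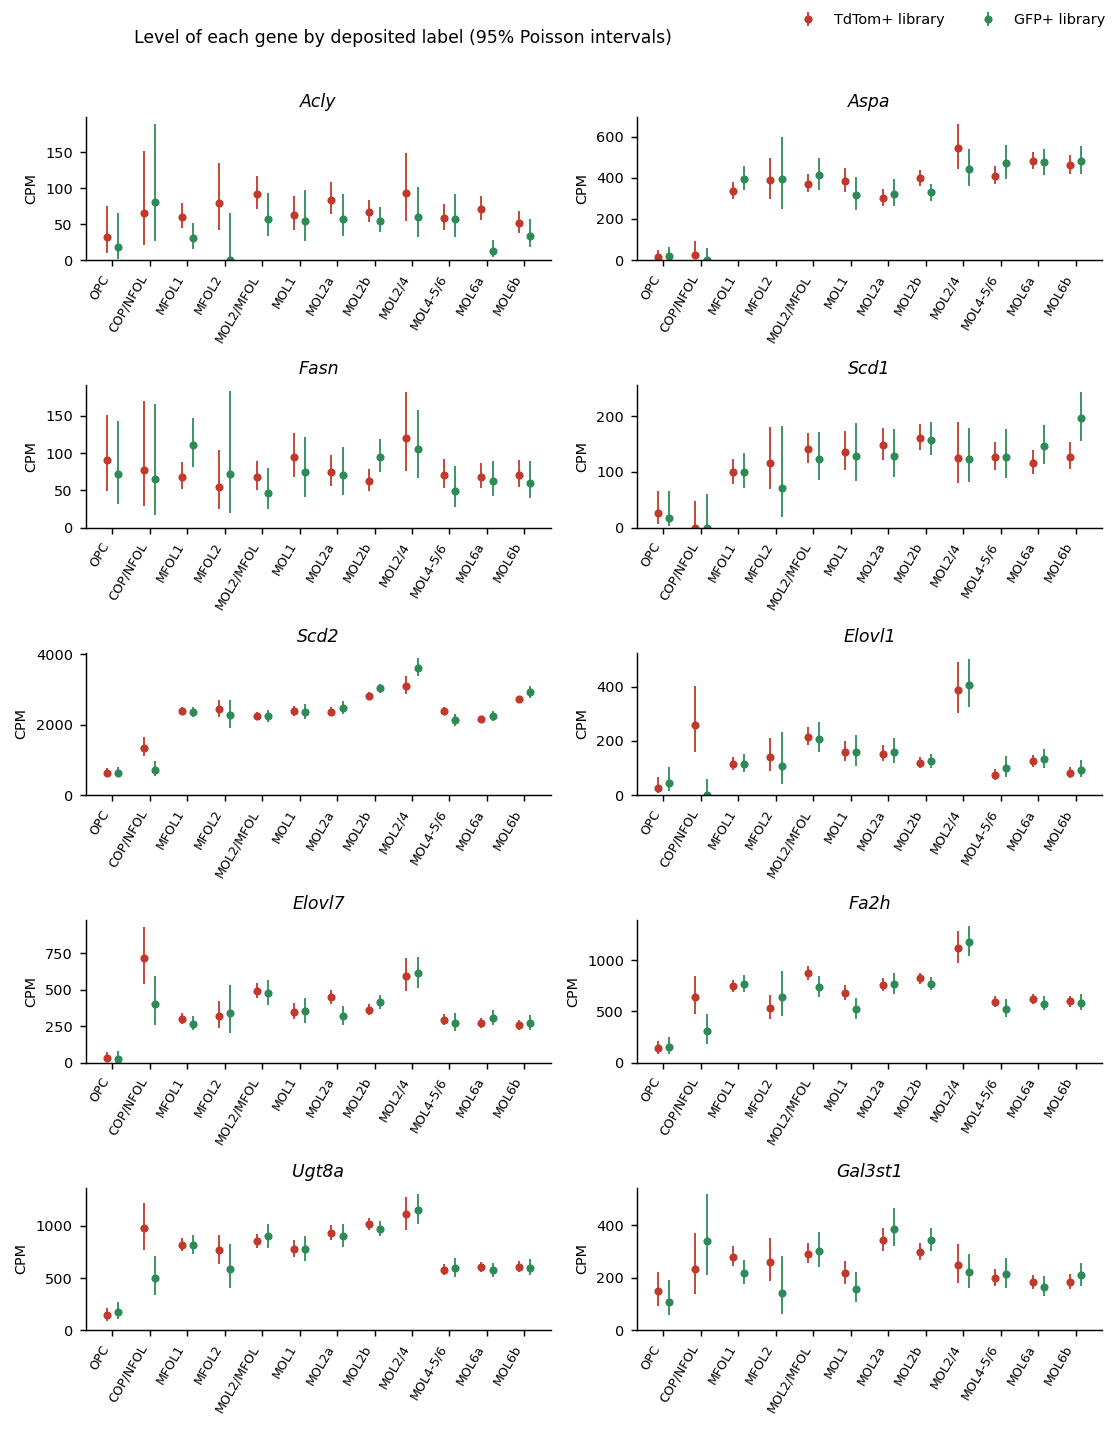
Level in CPM (vertical axis, from 0, a scale for each gene) of the 10 genes in each of the 12 labels, TdTom+ library in red and GFP+ library in green, with 95% Poisson intervals. Aspa and Scd1 are near 0 in OPC and COP/NFOL, Elovl7 and Ugt8a are high from COP/NFOL on, Fasn stays within 46.8 to 120 CPM, and Elovl1 peaks in MOL2/4 at 389 and 408 CPM.

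Across the set, 8 of the 10 genes passed 2-fold in both libraries from OPCs to mature OLs and 0 were lower, beside 16.8% of all genes higher and 8.05% lower. The exceptions were Fasn and Gal3st1. The median log2 ratio of the 10 genes was 2.35 in the TdTom+ and 2.11 in the GFP+ library, against 0.00 and -0.02 for all genes, 4.86 and 4.21 for 10 structural myelin genes, and 0.85 and 1.66 for the 3 cholesterol synthesis genes at that minimum. Scaling by edgeR's trimmed mean of M values (TMM) moved the median of all genes to 0.72, and called 30.7% of all genes higher and 2.20% lower. It added Gal3st1 to the genes called, and moved Fasn with the median of all genes. The log2 ratio of Fasn went from -0.31 to 0.39 in the TdTom+ library and from 0.01 to 0.76 in the GFP+ library, so its flat course depends on the scaling. OPC sums held 954 and 869 CPM of astrocyte marker genes, against 203 and 195 CPM in mature OLs, and 0.268% and 0.380% of structural myelin UMIs against 6.82% and 7.06%. Median UMIs per cell were 2909 and 2837 in OPCs and 3315 and 3299 in mature OLs. The part of these differences in the ratios was not tested.

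**Figure D2:**
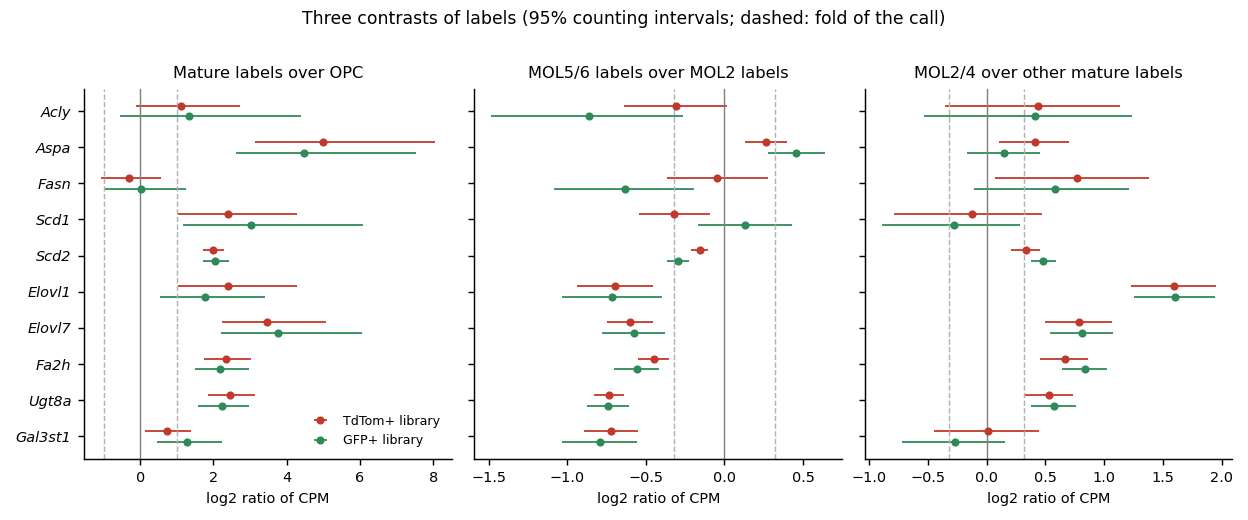
The log2 ratio of CPM (horizontal axis) of each gene for mature labels over OPC, MOL5/6 labels over MOL2 labels, and MOL2/4 over the other mature labels, in the TdTom+ (red) and GFP+ (green) library with 95% counting intervals. Dashed lines mark 2-fold in the first panel and 5/4-fold in the others. Aspa and Elovl7 lie farthest right in the first panel, 5 genes lie left of the dashed line in both libraries in the second, and Elovl1 stands apart in the third.

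Between MFOL1 and mature OLs a 1.5-fold rule called 0 of the 10 genes higher in MFOL1 and 0 lower. It called only 2.97% and 6.56% of all genes, so 0 calls among 10 genes does not set them apart. The ratio of MFOL1 to mature OLs was low for Scd1, at 0.728 (0.573 to 0.914) and 0.673 (0.480 to 0.921), with intervals below 1 in both libraries. Acly had 0.857 (0.624 to 1.15) and 0.656 (0.340 to 1.16). Elovl7 was below 1 in both libraries, at 0.843 (0.736 to 0.963) and 0.726 (0.594 to 0.880). Fa2h was 1.03 (0.945 to 1.12) and 1.10 (0.977 to 1.24) and Ugt8a 1.05 (0.967 to 1.14) and 1.02 (0.908 to 1.14). Fasn was 0.938 (0.697 to 1.24) in the TdTom+ and 1.52 (1.09 to 2.09) in the GFP+ library.

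In single cells Aspa and Elovl7 were seen in few OPCs and in most mature OLs, whereas Scd1 was seen in a minority of both. Cells were drawn down to 2400 UMIs apiece, and 150 TdTom+ and 74 GFP+ cells below that depth were dropped. Aspa had a UMI in 3 of 71 OPCs (4.23%, Clopper-Pearson interval 0.880% to 11.9%), in 0 of 18 COP/NFOL cells (upper bound 18.5%), in 51.7% of 259 MFOL1 cells (45.5% to 58.0%) and in 61.3% of 2225 mature OLs (59.2% to 63.3%). Before thinning the shares were 4.82% of OPCs, 5.26% of COP/NFOL cells, 74.8% of MFOL1 cells and 73.9% of mature OLs. Elovl7 was found in 8.45% of OPCs (3.16% to 17.5%), 61.1% of COP/NFOL cells (35.7% to 82.7%) and 54.0% of mature OLs (51.9% to 56.1%), and before thinning in 9.64% of OPCs, 73.7% of COP/NFOL cells and 65.9% of mature OLs. For Fasn the shares were 19.7% of OPCs (11.2% to 30.9%) and 15.8% of mature OLs (14.3% to 17.4%), with 22.9% and 23.1% unthinned. Ugt8a was found in 32.4% of OPCs (21.8% to 44.5%) and 81.1% of mature OLs (79.4% to 82.7%), with 37.3% and 86.9% unthinned. Scd2 was found in 77.5% of OPCs (66.0% to 86.5%) and 99.6% of mature OLs (99.3% to 99.8%). Scd1 was found in 8.45% of OPCs (3.16% to 17.5%) and 27.9% of mature OLs (26.0% to 29.8%), with 7.23% and 38.6% unthinned. A typical thinned OPC held a UMI of 2 of the 10 genes and a mature OL of 5, the same medians in both libraries. Median depths before thinning were 2996 UMIs in these OPCs and 3391 in these mature OLs, but 8372 in these COP/NFOL cells, which stand apart in depth. The unthinned COP/NFOL shares printed above are therefore not comparable with those of the other labels. Whether doublets are among the COP/NFOL cells was not tested. Free RNA can place a UMI in a cell that does not make the transcript, and the OPC share is the nearest measure of it here for the late genes.

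**Figure D3:**
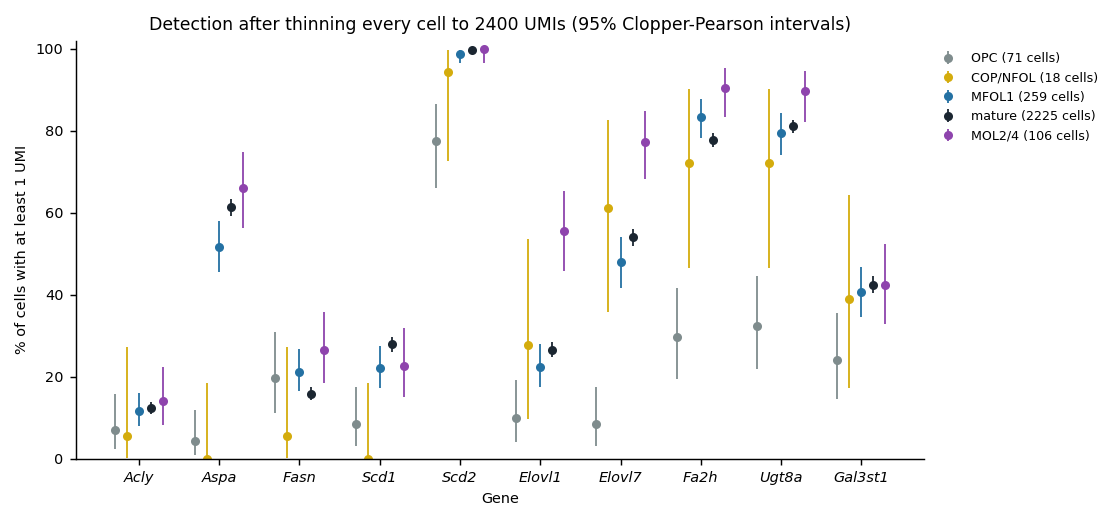
Share of cells with at least 1 UMI (vertical axis, %) of each gene after thinning every cell to 2400 UMIs, libraries together, with 95% Clopper-Pearson intervals, for OPC, COP/NFOL, MFOL1, all mature labels and MOL2/4. Aspa goes from 4.23% of OPCs to 61.3% of mature OLs, Elovl1 is found in 55.7% of MOL2/4 cells against 26.6% of all mature OLs, and Fasn and Acly stay low in every class.

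Within the mature OLs the galactolipid and elongation genes among the 10 were lower in the summed MOL5/6 labels (MOL4-5/6, MOL6a, MOL6b) than in the summed MOL2 labels (MOL2a, MOL2b, MOL2/4). A rule of 5/4-fold or more called 5 of the 10 genes lower in MOL5/6 in both libraries and 0 higher, beside 9.06% and 8.99% of all genes. These were Elovl1, Elovl7, Fa2h, Ugt8a and Gal3st1. For Elovl1 the labels were mixed, with MOL6a at 126 and 132 CPM above MOL2b at 120 and 125 CPM. Of 5 other listed elongation genes averaging 50 CPM or more, 1 was called lower and 0 higher. Ugt8a was 599 and 589 CPM in MOL5/6 against 995 and 985 CPM in MOL2, ratios of 0.602 (0.563 to 0.643) and 0.598 (0.544 to 0.657). All 3 MOL5/6 labels, at 575 to 607 CPM, lay below all 3 MOL2 labels, at 898 to 1154 CPM, in both libraries. Gal3st1 was 187 and 192 CPM against 309 and 332 CPM, ratios of 0.606 (0.537 to 0.682) and 0.578 (0.489 to 0.681). Fa2h was 607 and 569 CPM against 830 and 838 CPM, and Elovl7 272 and 286 CPM against 413 and 426 CPM. Aspa was the other way, at 454 and 477 CPM in MOL5/6 against 378 and 347 CPM in MOL2, a ratio of 1.2 (1.10 to 1.32) and 1.37 (1.21 to 1.56), which passed the rule in the GFP+ library alone. Scd2 was slightly lower in MOL5/6, at 0.896 (0.864 to 0.929) and 0.816 (0.777 to 0.857). The MOL2 labels also had more UMIs per cell, with medians of 3837 and 3984 against 2971 and 2983, and 304 and 241 CPM of astrocyte markers against 145 and 165 CPM, whose part was not tested. The median log2 ratio of the 10 genes was -0.38 and -0.60, against 0.03 and 0.05 for all genes and -0.12 and -0.09 for the structural myelin genes. The cholesterol list stood at -0.70 and -0.99 for its 3 genes at the minimum, of which 2 were called lower in MOL5/6 and 0 higher.

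As a summed share of UMIs the set was highest in MOL2/4, a contrast taken up after the levels by label had been seen. This label of 60 TdTom+ and 63 GFP+ cells held 0.746% and 0.793% of its UMIs in the 10 genes, against 0.535% and 0.544% in the other mature labels. By the same 5/4-fold rule, 7 of the 10 genes were higher there in both libraries and 0 lower, beside 14.4% of all genes higher and 35.0% lower. The median of all genes was itself shifted, at -0.23 and -0.29 on the log2 scale, against 0.48 and 0.53 for the 10 genes. Elovl1 led with 389 and 408 CPM against 129 and 134 CPM, 3.03-fold (2.34 to 3.86) and 3.05-fold (2.39 to 3.85). The highest other mature label reached 215 and 209 CPM, so MOL2/4 stood alone for Elovl1. Elovl7 was 1.72-fold (1.41 to 2.09) and 1.75-fold (1.45 to 2.10), Fa2h 1.58-fold (1.37 to 1.82) and 1.78-fold (1.56 to 2.03), and Ugt8a 1.44-fold (1.2 to 1.7) and 1.49-fold (1.30 to 1.70). Scd2 was 1.26-fold (1.16 to 1.37) and 1.40-fold (1.30 to 1.51). Fasn, at 120 and 105 CPM, was 1.70-fold (1.05 to 2.61) and 1.5-fold (0.928 to 2.32). Acly was 1.36-fold (0.782 to 2.20) and 1.33-fold (0.689 to 2.36), with intervals that include 1. The genes not called were Aspa, Scd1 and Gal3st1. Aspa was 1.33-fold (1.07 to 1.62) and 1.11-fold (0.893 to 1.37), and Gal3st1 1.01-fold (0.733 to 1.36) and 0.832-fold (0.608 to 1.11). Scd1 was 0.919-fold (0.579 to 1.39) and 0.826-fold (0.538 to 1.22). For Scd1, MOL2/4 lay above only 1 of the 7 other mature labels in each library. Without MOL2/4 among the MOL2 labels, the MOL5/6 contrast kept Elovl7, Fa2h, Ugt8a and Gal3st1 as lower, lost Elovl1 and called Aspa higher.

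The MOL2/4 cells also differed from the other mature cells in RNA make-up. Ribosomal protein genes took 2.82% and 2.25% of their UMIs against 7.07% and 7.01%, and mitochondrial genes 2.07% and 2.01% against 1.36% and 1.38%. Structural myelin genes took 8.07% and 8.20% against 6.78% and 6.97%, with 4 of 10 called higher and 4 lower. Median UMIs per cell were 2758 and 3312 against 3336 and 3290, and astrocyte markers 263 and 179 CPM against 201 and 196 CPM. The part of these differences in the levels of the 10 genes was not tested.

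Around the set, 65 other genes of fatty acid, sphingolipid and galactolipid metabolism were listed, of which 55 were in the matrix and 19 reached the minimum of 50 CPM. From OPCs to mature OLs 6 of the 19 were called higher and 2 lower, beside 16.8% and 8.05% of all genes at that minimum. Without the minimum, the counts were 11 higher and 15 lower of 55, beside 9.65% and 24.8% of all 11733 genes. The higher genes included Cers2, the ceramide synthase for very long chains, at 310 and 330 CPM in mature OLs against 70.9 and 54.3 CPM in OPCs, 4.36-fold and 6.07-fold. Fabp5, a fatty acid binding protein, was 304 and 325 CPM against 96.7 and 90.6 CPM. Acsl1, an acyl-CoA synthetase, was 72.4 and 69.4 CPM against 6.45 and 9.06 CPM (1 UMI in each OPC sum). Scd3 was 68.7 and 62.6 CPM against 0 of 155061 UMIs, which allows up to 19.3 CPM, and 9.06 CPM. Elovl5, an elongase of polyunsaturated chains, was 123 and 141 CPM against 58.0 and 27.2 CPM (9 and 3 UMIs), and Insig1, a brake on sterol-regulated transcription, 65.8 and 66.7 CPM against 25.8 and 18.1 CPM (4 and 2 UMIs). The lower genes were Hsd17b12, a step of the elongation cycle, at 75.3 and 70.1 CPM against 187 and 154 CPM, and Dbi, the acyl-CoA binding protein, at 1728 and 1722 CPM against 3463 and 3659 CPM. Dbi also missed 2-fold with cell-mean CPM and with a denominator without structural myelin genes. Under TMM neither passed 2-fold, at -0.59 and -0.36 for Hsd17b12 and -0.29 and -0.32 for Dbi on the log2 scale, and 9 of the 19 were higher and 0 lower.

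Between MFOL1 and mature OLs, 2 of these 19 genes were higher in MFOL1 and 3 lower, beside 2.97% and 6.56% of all genes. Acsl3, another acyl-CoA synthetase, was 252 and 236 CPM in MFOL1 against 108 and 107 CPM in mature OLs, and Elovl6, which lengthens palmitate, 169 and 148 CPM against 104 and 96.1 CPM, a call lost with cell-mean CPM. Elovl5 was 38.8 and 50.8 CPM in MFOL1 against 123 and 141 CPM, and Scd3 26.7 and 25.4 CPM against 68.7 and 62.6 CPM. Hsd17b12 was 36.4 and 46.2 CPM against 75.3 and 70.1 CPM, a call lost with TMM, with cell-mean CPM and with a denominator without structural myelin genes.

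Between the MOL5/6 and MOL2 labels these 19 genes went both ways, with 4 called higher in MOL5/6 and 3 lower, beside 8.99% and 9.06% of all genes. With cell-mean CPM 2 calls changed, to 3 higher and 4 lower, beside 8.28% and 8.55% of all genes. Of the genes named above, Acsl3, Dbi and Scd3 were among the higher and Elovl5 among the lower. Acsl3 was 133 and 123 CPM in MOL5/6 against 82.3 and 92.8 CPM in MOL2, and Elovl5 87.5 and 97.2 CPM against 158 and 182 CPM.

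In MOL2/4, 9 of the 19 were called higher than in the other mature labels and 3 lower, beside 14.4% and 35.0% of all genes. Some of these, on both sides, are named here after their values were seen. Tecr, the last reductase of the elongation cycle, was 953 and 907 CPM against 417 and 391 CPM. Cers2 was 772 and 669 CPM against 295 and 302 CPM, Degs1, the dihydroceramide desaturase, 575 and 440 CPM against 243 and 234 CPM, and Elovl5 356 and 256 CPM against 116 and 132 CPM. In each of these 4 genes MOL2/4 lay above all 7 other mature labels in both libraries. The 3 lower genes were Dbi, at 761 and 577 CPM against 1759 and 1815 CPM, Sptssa, a small subunit of the serine palmitoyltransferase that starts ceramide synthesis, at 170 and 220 CPM against 283 and 314 CPM, and Insig1, at 43.8 and 50.4 CPM (8 and 11 UMIs) against 66.5 and 68.0 CPM. For Insig1 the GFP+ value was above 2 of the 7 other mature labels. Sptssa was lower in MOL2/4 than in any of the 7 other mature labels in both libraries. In the cholesterol list the 3 genes at the minimum were higher in MOL2/4.

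**Figure D4:**
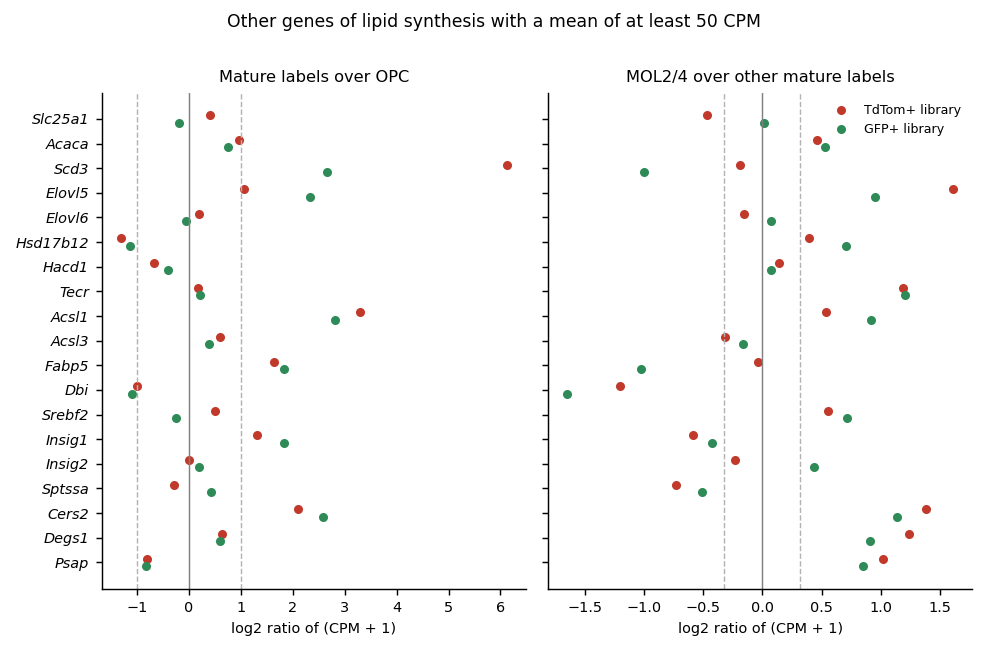
The log2 ratio of CPM + 1 (horizontal axis) of the 19 other listed genes that average 50 CPM or more, for mature labels over OPC (dashed lines at 2-fold) and MOL2/4 over the other mature labels (dashed lines at 5/4-fold), TdTom+ library in red and GFP+ library in green. Cers2, Acsl1, Fabp5, Scd3, Elovl5 and Insig1 lie right of the dashed line in the first panel, and Tecr, Cers2, Degs1, Elovl5 and Psap among the 9 right of it in the second. The Scd3 value of the TdTom+ library in the first panel rests on 0 OPC UMIs and depends on the added 1 CPM.

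The patterns of the 10 genes over the 24 sums (12 labels in 2 libraries) grouped some of them closely. Pearson's r of log2(CPM + 10) was 0.949 for Fa2h with Ugt8a, 0.935 for Elovl7 with Ugt8a, 0.929 for Aspa with Scd2 and 0.927 for Aspa with Scd1. Aspa with Elovl7 gave 0.458 over all sums and 0.913 over the 22 without COP/NFOL, a label of 19 cells. The values of Fasn with the other 9 lay between -0.08 and 0.24. These sums share libraries, and cells in 1 label share depth and RNA make-up, so r is a description. Over all genes at the minimum, the closest to Aspa were Mast4 (0.984), Tmem229a (0.981) and Ndrg1 (0.98). Scd2 was closest to Abca2 (0.98), Kif1b (0.968) and Galnt6 (0.967), and Scd1 to Slc24a2 (0.971), Tmem229a (0.959) and Prr18 (0.958). Fa2h was closest to Tmem151a (0.95), Tmem125 (0.949) and Ugt8a, and Ugt8a to Map1a (0.963), Gm15440 (0.955) and Fa2h. Elovl7 was closest to Gm15440 (0.953), Pcyt2 (0.943) and Rtn4 (0.942). Values were lower for 3 others: Gal3st1 led with Fkbp1a (0.789), Tspan17 (0.762) and Shisa4 (0.758), Acly with Lig3 (0.778), Uap1 (0.754) and Rab6b (0.738), and Fasn with Serinc1 (0.630), Laptm4b (0.514) and Stard3 (0.512).

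The libraries were made to compare dorsally with ventrally derived cells, and 9 of the 10 genes differed by less than 5/4-fold between them. By that fold only 1.12% of all genes were higher and 1.22% lower in the TdTom+ library, so such closeness was usual. Ugt8a was 773 and 777 CPM in the TdTom+ and GFP+ libraries, a ratio of 0.994 (0.949 to 1.04). Elovl7 was 344 and 347 CPM (0.992, 0.926 to 1.06), Gal3st1 247 and 251 CPM (0.983, 0.907 to 1.07), Aspa 390 and 383 CPM (1.02, 0.954 to 1.09) and Fa2h 707 and 683 CPM (1.03, 0.985 to 1.09). Scd1 was 128 and 134 CPM (0.954, 0.854 to 1.07), Elovl1 133 and 143 CPM (0.932, 0.836 to 1.04) and Fasn 72.0 and 77.3 CPM (0.931, 0.803 to 1.08). Scd2 was 2423 and 2528 CPM, a ratio of 0.959 (0.934 to 0.983) whose interval lies below 1. All of these intervals stay within 5/4-fold of 1.

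Over whole libraries Acly was the exception, at 67.6 CPM in the TdTom+ library (482 UMIs) and 43.0 CPM in the GFP+ library (154 UMIs), a ratio of 1.57 (1.31 to 1.90). By 5/4-fold, 1 of the 10 genes was higher in the TdTom+ library and 0 lower, beside 1.12% and 1.22% of all genes, and 2950 of the 2958 genes lay closer to 0 on the log2 scale than Acly. That difference was known when the genes were chosen. Acly was higher in the TdTom+ cells in 11 of 12 labels, with the interval of the ratio above 1 in 3 of them. Within single labels the intervals of other genes also missed 1, and over the 10 genes and 12 labels 14 intervals lay above 1 and 6 below. Among so many intervals some miss 1 by counting error alone. The same count was not made over all genes. These counts, and that of Acly by label, therefore have no background to be set beside. In COP/NFOL, 11 against 8 cells, the TdTom+ values of Scd2, Elovl7, Fa2h and Ugt8a were 1.77-fold to 2.07-fold the GFP+ values with intervals above 1, and the Elovl1 UMIs were all in TdTom+ cells. These intervals treat UMIs as independent and are too narrow, since single cells held 14 of the 25 GFP+ Elovl7 UMIs and 17 of the 75 TdTom+ Ugt8a UMIs. These COP/NFOL sums also differed in make-up, with 5.09% against 2.67% of structural myelin UMIs and 5.55% against 9.85% of ribosomal UMIs, whose part was not tested. Fa2h had an interval above 1 in 3 labels, and Scd2 in 2, with 3 below 1. Elovl7 was 1.40-fold (1.11 to 1.79) in MOL2a. Fasn was the other way in MFOL1, at 0.613 (0.409 to 0.921), and in MOL2b, at 0.663 (0.471 to 0.933), as was Scd1 in MOL6b, at 0.650 (0.485 to 0.876). For Acly the widest gap with UMIs in both libraries was in MOL6a, at 70.5 CPM (71 UMIs) against 12.6 CPM (6 UMIs), and in MOL4-5/6 the values were 58.0 and 56.7 CPM. Without MOL6a, left out after this was seen, the log2 ratio of the libraries was 0.49 in place of 0.64. With 1 library each, origin and library preparation cannot be told apart, and no replicate shows how far 2 libraries of the same origin would differ.

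**Figure D5:**
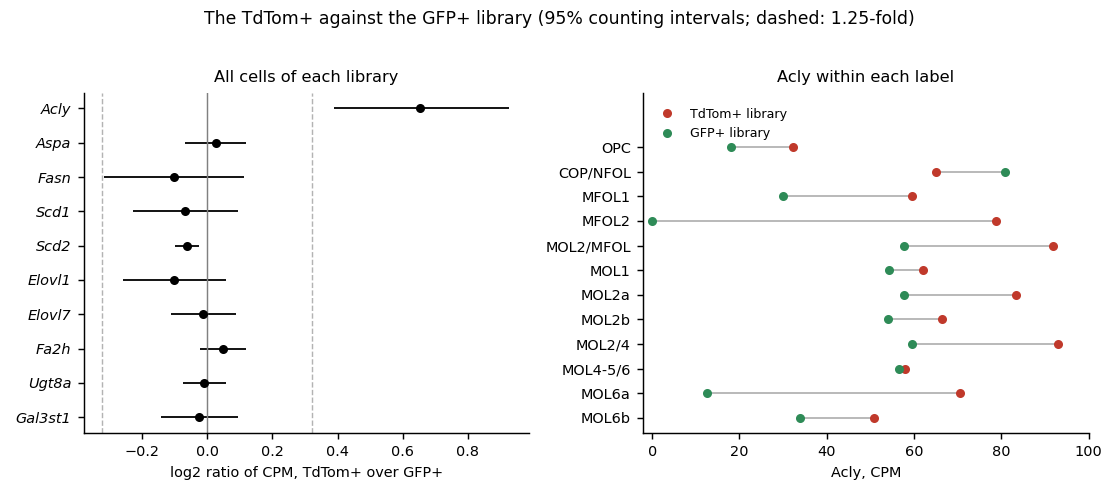
Left, the log2 ratio of library CPM, TdTom+ over GFP+, of each gene with 95% counting intervals (dashed lines at 5/4-fold). Right, the level of Acly in CPM in each label, TdTom+ in red and GFP+ in green. Acly alone passes the dashed line, and its TdTom+ value is the higher one in every label but COP/NFOL.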

How the data were processed

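Per the labels, single cells were sorted by reporter, captured with 10x Genomics 3′ v2 chemistry and processed with Cell Ranger 2.1.1 on mm10. The authors filtered, clustered and labelled the cells. The deposited matrix holds, as signal, each gene's UMI count divided by the total of its cell. Counts were recovered by dividing by the lowest value above 0 in each cell, and 100% of values came out within 0.01 of a whole number. Of the 40 columns of the table of cells, 38 were not used. UMIs were summed by library and label and scaled to CPM, so composition affects every level. Calls used log2(CPM + 1) and the 2958 genes averaging 50 CPM or more over the libraries. Printed ratios are of CPM itself. Intervals are exact Poisson, exact conditional (ratios) or Clopper-Pearson (shares), at 95%, and cover counting error only. No doublet caller was run. The highest 5% of cells by UMIs were left out as an alternative instead. A microglia-like cell labelled MFOL2 in the TdTom+ library held 100 of the 111 microglial marker UMIs and 0 UMIs of the 10 genes. Astrocyte markers gave 207 and 206 CPM in the libraries, endothelial markers 5.33 and 4.74 CPM (2 of 4 at 0) and neuronal markers 24.5 and 28.5 CPM.

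The genes and lists were chosen with earlier results of these data known. Named were the 10 genes, other listed genes averaging 50 CPM or more that were called between OPCs and mature OLs or between MFOL1 and mature OLs, and the 3 genes most alike each of the 10, some of which are not reported here. Tecr, Degs1, Psap and Sptssa lie outside this rule and were chosen from the MOL2/4 contrast after their values were seen. Positions are from GENCODE M21 and promoters from RefSeq, both GRCm38. Scripts were tested on simulated data. TMM came from edgeR 4.0.16. Intervals came from scipy 1.17.1 in Python 3.11.15.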

Additional observations from a re-analysis of the deposited data

How the results depend on the processing

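No paired analysis was possible because each origin has 1 library and no result comes from a test. The counts of genes called between labels and between libraries stayed within 1.5 times the reported count under cell-mean CPM, TMM, a denominator without structural myelin genes, a pseudocount of 10 CPM, summed libraries, no filter on the background genes, and without the highest 5% of UMIs, with 1 exception. Without those cells 1 gene in place of 0, Elovl1, was lower in MFOL1 than in mature OLs. The 8 genes higher in mature OLs than in OPCs ranged from 7 to 9, Acly being lost with cell-mean CPM or the larger pseudocount. The 5 genes lower in MOL5/6 than in MOL2 labels ranged from 4 without MOL2/4 to 6, Acly joining as lower under 3 alternatives, and Aspa was called higher with summed libraries and without MOL2/4. The 7 genes higher in MOL2/4 became 6 with summed libraries, without Acly. The log2 ratio of Acly between libraries ranged from 0.49 to 0.73 over 9 alternatives. The median gain in the share of cells with a UMI, mature OLs over OPCs, was 20.8 percentage points, 28.2 without thinning and 14.4 with at least 2 UMIs required. Of the other values, 89 of 90 library ratios stayed within their counting interval and the exception was Scd2 in mature labels only, at -0.10. Of 30 shares of mature cells, 29 moved, as the depth or the number of UMIs required changed. The cause was not tested. Among all genes, dropping the 50 CPM minimum called 9.65% higher and 24.8% lower from OPCs to mature OLs, 4.92% higher in MFOL1 than in mature OLs, and 9.61% and 12.3% between libraries. A standardized composition of labels called 0.541% of genes lower in the TdTom+ library, and summed libraries called 13.7% higher in MOL5/6. The 83 OPCs and 19 COP/NFOL cells set the depth of every contrast with them.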
